A study of Mus musculus with 4 samples.

Results

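The 9 transcription factor genes of ganglionic eminence derived interneurons described here were measured in mouse primary cortical neurons: the distal-less homeobox genes Dlx1, Dlx2, Dlx5 and Dlx6, the LIM homeobox genes Lhx6 and Lhx8, the SRY-box gene Sox6, the NK2 homeobox gene Nkx2-1 and the prospero homeobox gene Prox1. They were taken by symbol from a table of 22552 genes, and all 9 had a row. The cultures came from E16.5 mouse cortex. Wild-type neurons were compared with neurons of the genotype Brg1-cko (BAF53bCre Brg1F/F), called cKO here, which carried floxed alleles of Brg1, also called Smarca4 and encoding the ATPase that drives the BAF chromatin remodeller, together with a Cre recombinase under the name of BAF53b, a BAF subunit gene of neurons. Per the labels' protocol, TTX (1 µM), which blocks sodium channels, and APV (100 µM), which blocks NMDA receptors, were given on day 5 in vitro. KCl was raised to 50 mM for 6 h on day 6 to depolarize the treated cultures, and the other cultures stayed at the basal KCl level. Each of the 4 groups, basal and KCl in either genotype, had 1 library, which leaves the spread between cultures of a group unmeasured, and no test across libraries was run. The words higher and lower therefore describe these 4 libraries. No source used here gives the number of embryos behind a library.

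Cortical inhibitory interneurons are born outside the cortex, in the ganglionic eminences of the ventral forebrain, and migrate into it before birth. Dlx1 and Dlx2, then Dlx5 and Dlx6, act in all eminences and lead to the GABA phenotype. Nkx2-1 specifies the medial eminence and switches on Lhx6, which with its target Sox6 directs somatostatin and parvalbumin interneurons. Lhx8 serves cholinergic and other neurons of the same eminence. Prox1 is kept in interneurons of the caudal eminence, and is also known from dentate granule neurons and from the oligodendrocyte lineage, where Sox6 is expressed as well.

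Values are FPKM, that is, fragment numbers divided by transcript length and by library size, and so can be set side by side between genes. The depth of the libraries, approximated from the steps between low values, was 20550000 to 21900000 fragments, at which 1 FPKM on a transcript of 2000 bases is 41.1 to 43.8 fragments. The 95% intervals of all folds are exact binomial intervals on these approximated fragments. They cover counting error only. Smarca4 measured 34.0 (basal) and 28.5 FPKM (KCl) in wild type against 10.5 and 10.4 in the cKO, so that the transcript was lower but still present in the cKO. Of 10 immediate early genes, which depolarization switches on, 9 were at least 2-fold higher with KCl in each genotype, and Fos stood at 2.40 FPKM before and 203.4 after KCl in wild type and at 3.69 before and 224.1 after it in the cKO. All 14 pan-neuronal genes with a row were at 1 FPKM or more in some library, and so were all 13 astrocyte and radial glia genes, all 14 oligodendrocyte lineage genes and all 12 microglia genes, so the cultures also held RNA of glia. Xist, which the inactive X chromosome transcribes, had 78.1 FPKM or more in both wild-type libraries against 0.29 or less in both cKO ones, and sex and genotype cannot be told apart in any genotype comparison below.

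RefSeq promoter windows (GRCm38.p6, 250 bases before to 50 after the start of transcription) were found for 7 of the 9 genes, and not for Dlx5 and Dlx6. The sequences below are those of the gene with the largest KCl difference on the log2(FPKM + 1) scale (Lhx6, starts 1 and 3 of 3 annotated ones), of the neighbouring pair that differed from each other (Dlx1 and Dlx2) and of the gene that went the other way (Prox1, start 1 of 2). Capitals mark matches, on either strand, to 5 motifs: TAATTA (a homeodomain core), TNAAGTG (the NK2 family motif), TGANTCA (AP-1, the motif of Fos and Jun), TGACGTCA (the cyclic AMP response element) and TATAAA (the TATA box). They are printed 5′ to 3′ on the strand of the gene.

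Lhx6, start 1, chr2:36105359-36105658, minus strand: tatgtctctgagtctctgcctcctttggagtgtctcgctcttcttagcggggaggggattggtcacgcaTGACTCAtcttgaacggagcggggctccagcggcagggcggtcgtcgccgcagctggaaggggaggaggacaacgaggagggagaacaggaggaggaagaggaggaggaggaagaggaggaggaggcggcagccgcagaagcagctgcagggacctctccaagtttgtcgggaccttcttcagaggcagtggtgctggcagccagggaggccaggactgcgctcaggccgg

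Lhx6, start 3, chr2:36104011-36104310, minus strand: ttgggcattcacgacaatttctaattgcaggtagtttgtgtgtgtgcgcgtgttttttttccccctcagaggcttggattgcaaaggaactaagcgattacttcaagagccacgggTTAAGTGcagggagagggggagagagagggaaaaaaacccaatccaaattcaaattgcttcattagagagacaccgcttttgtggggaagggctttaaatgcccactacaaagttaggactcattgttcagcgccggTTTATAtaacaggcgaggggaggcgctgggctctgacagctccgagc

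Dlx1, chr2:71529195-71529494, plus strand: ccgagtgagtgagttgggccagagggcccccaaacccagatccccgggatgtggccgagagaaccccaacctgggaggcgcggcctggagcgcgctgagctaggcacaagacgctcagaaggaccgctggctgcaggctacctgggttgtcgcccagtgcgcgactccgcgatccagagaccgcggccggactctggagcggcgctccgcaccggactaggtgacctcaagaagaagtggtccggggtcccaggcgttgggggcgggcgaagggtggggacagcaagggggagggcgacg

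Dlx2, chr2:71546705-71547004, minus strand: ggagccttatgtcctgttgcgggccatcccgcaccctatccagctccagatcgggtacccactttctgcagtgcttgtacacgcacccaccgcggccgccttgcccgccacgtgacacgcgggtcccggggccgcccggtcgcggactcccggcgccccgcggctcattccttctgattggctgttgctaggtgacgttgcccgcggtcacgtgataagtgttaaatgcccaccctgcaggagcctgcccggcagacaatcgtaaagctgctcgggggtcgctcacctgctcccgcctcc

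Prox1, start 1, chr1:190170778-190171077, minus strand: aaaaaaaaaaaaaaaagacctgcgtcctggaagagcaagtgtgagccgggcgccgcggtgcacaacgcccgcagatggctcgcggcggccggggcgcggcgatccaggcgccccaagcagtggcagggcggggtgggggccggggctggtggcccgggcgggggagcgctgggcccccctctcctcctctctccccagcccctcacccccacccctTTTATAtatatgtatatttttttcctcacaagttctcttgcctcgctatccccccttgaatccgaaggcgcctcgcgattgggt

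The first Lhx6 window held 1 AP-1 match, beginning at position −181 from the start of transcription, and 7.81% of all 32851 promoter windows in the table held one. The third Lhx6 window held 1 NK2 match, beginning at position −134, and 1 TATA box match. The TATA box match began at position 4, after the start of transcription. Of all windows 11.5% held an NK2 match and 13.6% a TATA box match. The second Lhx6 window, the Dlx1 and Dlx2 windows, the Lhx8 and Nkx2-1 windows and the second Prox1 window held none of the 5 motifs. The first Prox1 window held 1 TATA box match, and of the 6 Sox6 windows 3 held an NK2 match and 2 a TATA box match. No window of the 7 genes held the homeodomain core or the cyclic AMP response element, which were found in 5.29% and 1.79% of all windows. The Dlx1 and Dlx2 windows were rich in G and C (69.3% and 66.3%), against a median of 52.7% over all windows. A match is a description of the letters and not a site of binding.

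The levels ranked differently before and after depolarization. Before KCl, in wild type, Lhx6 was the highest at 17.3 FPKM, followed by Sox6 at 16.8, Dlx1 at 13.9, Dlx2 at 5.11, Dlx5 at 4.38, Prox1 at 1.91 and Dlx6 at 1.45. After KCl, in wild type, Sox6 was the highest at 19.4 FPKM, followed by Prox1 at 4.56, Dlx1 at 4.48, Dlx2 at 3.91, Dlx5 at 2.01 and Lhx6 at 1.74, with Dlx6 at 0.14. Lhx6 thus passed from the first to the sixth place. Nkx2-1 and Lhx8 were near the floor of detection in every library and take no part in the ratios below. Nkx2-1, the regulator that precedes Lhx6, was between 0.27 and 0.52 FPKM, or about 14.3 to 27.5 fragments. Lhx8 was listed at 0 in 3 libraries and at 0.025 FPKM, about 1 fragment, in the cKO basal library.

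**Figure D1:**
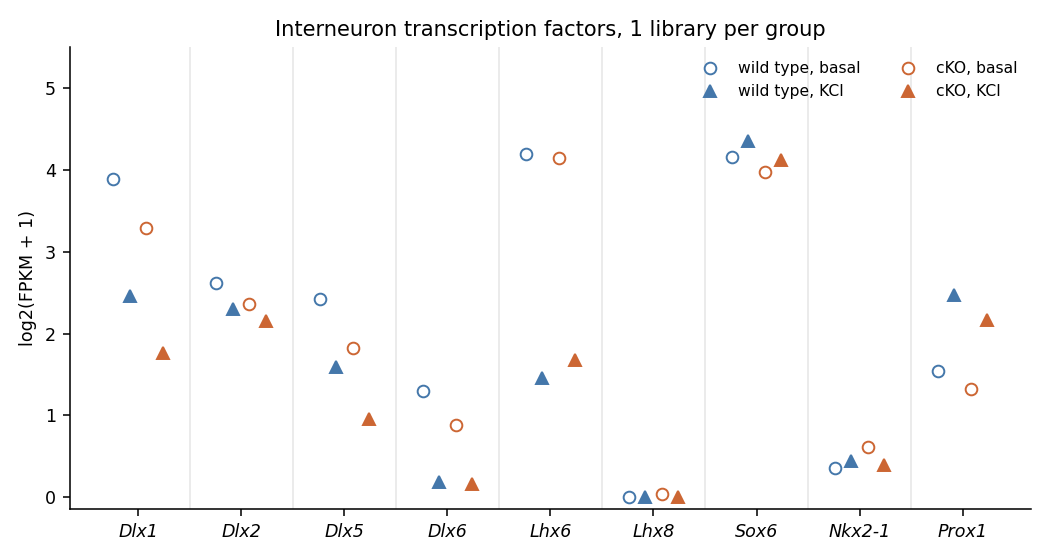
Levels of the 9 genes as log2(FPKM + 1) in each of the 4 libraries (open circles basal, filled triangles KCl, blue wild type, orange cKO; 1 library per group, no error bars). Lhx6 and Dlx1 lie high in both basal libraries and low in both KCl libraries, Prox1 lies higher in both KCl libraries, and Sox6 lies at a similar height in all 4.

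Wild-type neurons after 6 h of depolarization were first set against basal ones. Lhx6 went from 17.3 to 1.74 FPKM, 9.97-fold lower (8.28 to 12.1). On the log2(FPKM + 1) scale its difference was −2.74, the largest of the members and the third lowest of the 13248 genes that reached 1 FPKM in at least 1 library. Dlx1 was 3.10-fold lower (2.76 to 3.48) and Dlx5 2.18-fold lower (1.59 to 3.03). Dlx6 stood at 1.45 and 0.14 FPKM, 10.7-fold lower, with a wide interval of 3.41 to 52.8 because the KCl value rests on about 3 fragments. Dlx2 differed less, at 5.11 and 3.91 FPKM, 1.31-fold lower (1.09 to 1.58). In bulk RNA fewer interneurons and less RNA per interneuron cannot be told apart.

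Counted as a log2 difference of at least 1 after adding 1 to both values, 3 of the 9 genes were lower (Dlx1, Dlx6 and Lhx6) and none was higher, where 3.31% of all genes tested were lower and 5.07% higher. Of the 7 genes that reached 1 FPKM, Dlx6 did so only through the wild-type basal library. The median log2 difference was −0.32 over all 9 genes and −0.84 over the 7, against −0.01 over all genes. Dlx5 was past 2-fold in its deposited values but not after 1 was added, with a log2 difference of −0.84. With rescaling to the ribosomal protein genes 8.15% of all genes were lower and 2.82% higher, since the median of all genes was then −0.31. In that scaling 4 of the 9 members were lower, Dlx5 included. Without rescaling and after adding 1, the whole counting interval was past 2-fold lower for 2 members, Dlx1 and Lhx6. The Dlx6 interval on this log2 scale was −1.32 to −0.71. The share of all genes was not counted by whole intervals.

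Prox1 and Sox6 did not share the lower level. Prox1 was 2.39-fold higher with KCl (2.09 to 2.74), at 1.91 FPKM in basal and 4.56 in KCl. Its log2 difference after adding 1 was 0.94, below the size counted, and it was 1.07 with 0.5 added in place of 1. Sox6 was at 16.8 and 19.4 FPKM, 1.15-fold higher (1.10 to 1.21), and its log2 difference changed from 0.19 to −0.14 with rescaling to the ribosomal protein genes. Astrocyte and radial glia genes were also higher in this library, at 1891 and 2868 summed FPKM, and oligodendrocyte lineage genes stood at 762 and 835. The part of glia in the Sox6 and Prox1 values was not tested.

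In cKO neurons, the same comparison shows the response with Smarca4 low. Lhx6 went from 16.7 to 2.19 FPKM, 7.62-fold lower (6.45 to 9.06), the eleventh lowest of all genes on the log2 scale at −2.47. Dlx1 stood at 8.75 and 2.38 FPKM, 3.67-fold lower (3.15 to 4.30). Dlx5 was 2.73-fold lower (1.74 to 4.39), at 2.54 and 0.93 FPKM. Dlx6 went from 0.83 to 0.12 FPKM, 7.15-fold lower (2.01 to 41.8), again on about 3 fragments in KCl. Dlx2 was at 4.16 and 3.46 FPKM, and its interval of 0.98-fold to 1.47-fold lower included no difference. Prox1 was 2.34-fold higher (2.02 to 2.73), at 1.49 and 3.50 FPKM, and Sox6 was 1.12-fold higher (1.06 to 1.18), at 14.7 and 16.4, with a log2 difference of −0.25 after rescaling to the ribosomal protein genes.

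By the same count 2 of the 9 genes were lower in the cKO (Dlx1 and Lhx6) and none was higher, where 3.09% of all genes tested were lower and 4.41% higher. With 0.5 or 0.1 added in place of 1 the lower genes numbered 4, as Dlx5 and Dlx6 were then included. The share of all genes was not counted with 0.5 or 0.1 added, and Dlx6 was under 1 FPKM in both cKO libraries. The medians were −0.22 over the 9 genes and −0.72 over the 7, against 0.01 over all genes. With rescaling to the ribosomal protein genes 8.30% of all genes were lower and 2.17% higher, and 3 members were lower, Dlx5 included. All 7 measured members had the same direction in both genotypes, and with the ribosomal scaling Sox6 turned to lower in both.

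**Figure D2:**
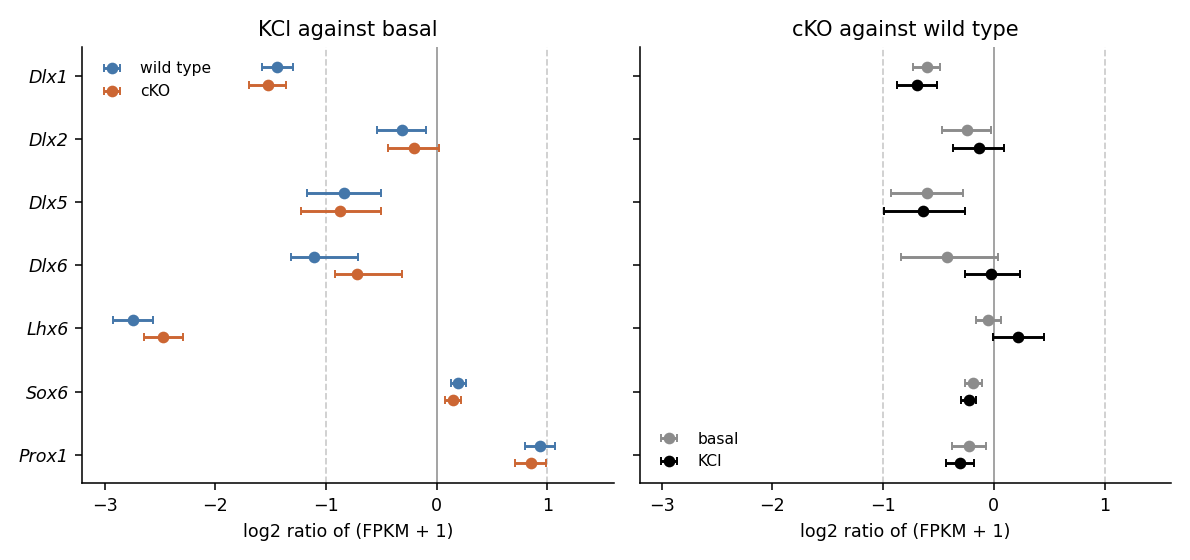
Log2 ratios of (FPKM + 1) for the 7 genes that reached 1 FPKM, for KCl against basal in each genotype (left) and cKO against wild type in each condition (right). Bars are 95% counting intervals, which leave out differences between cultures, and dashed lines mark 2-fold. Lhx6 lies farthest to the left in the KCl comparison, and no genotype difference passes 2-fold.

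**Figure D3:**
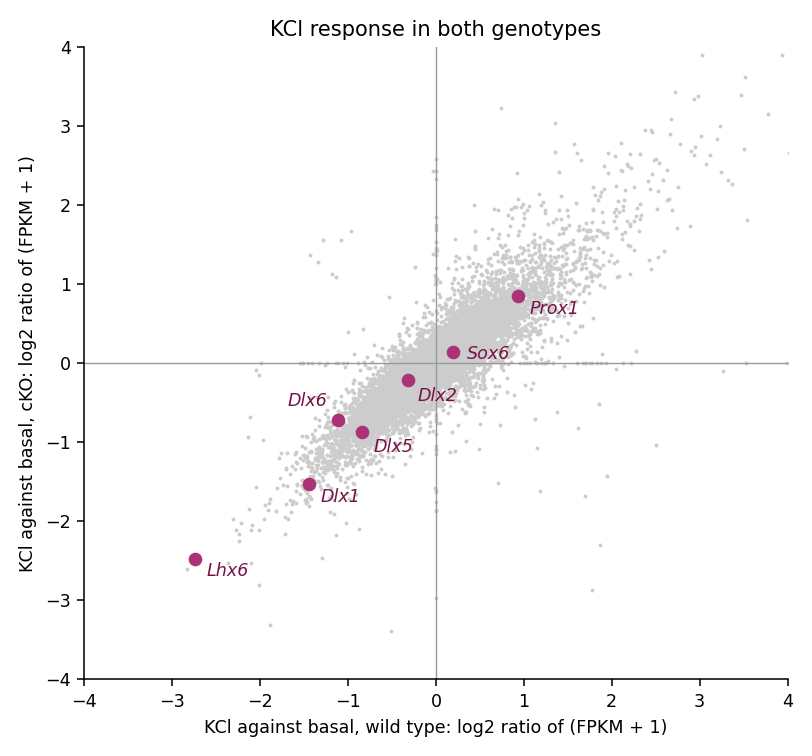
KCl response of each of 13248 genes in wild type (x axis) and in the cKO (y axis), as log2 ratio of (FPKM + 1), with the 7 genes in purple. The axes end at 4, which leaves 23 genes outside. Lhx6 lies at the lower left edge of all genes, Dlx2 and Sox6 lie within the bulk, and Prox1 lies at the upper right.

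The difference between the responses, cKO minus wild type, addresses whether these genes responded otherwise with Smarca4 low. It was between −0.09 and 0.11 on the log2 scale for Dlx1, Dlx2, Dlx5, Sox6 and Prox1, and each of these 5 counting intervals, which combine the half-widths of both responses in quadrature and are approximate, included 0. For Lhx6 it was 0.27 (0.02 to 0.52), a smaller difference with KCl in the cKO, and for Dlx6 it was 0.40 (−0.06 to 0.85). The median over the 7 genes was −0.04, against 0.02 over all genes, and it was 0.01 with rescaling to the ribosomal protein genes. The approximate Lhx6 interval leaves out the variation between cultures, so a difference of this size was not shown to exceed it.

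The genotypes were next compared without KCl. All 4 Dlx genes had lower values in the cKO library, where the Dlx6 interval included no difference, and so did the Lhx6 one. Dlx1 was 1.58-fold lower (1.44 to 1.74), at 13.9 and 8.75 FPKM. Dlx5 was 1.72-fold lower (1.28 to 2.34), at 4.38 and 2.54, and Dlx6 1.74-fold lower (0.96 to 3.27), at 1.45 and 0.83. Dlx2 was 1.23-fold lower (1.02 to 1.48). Lhx6 was at 17.3 and 16.7 FPKM, a ratio of 0.96 (0.89 to 1.05). Sox6 was 1.15-fold lower (1.08 to 1.21) and Prox1 1.28-fold lower (1.08 to 1.52).

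None of the 9 genes was past 2-fold at basal KCl, where 0.936% of all genes tested were higher and 0.551% lower. All 7 measured members lay below 0 as deposited, though Lhx6 turned to above 0 with the rescaling given below. Their median log2 difference was −0.25, against 0.01 over all genes. Dlx6 was among the 7 only through the wild-type basal library, the higher side of this comparison, and its interval included no difference. Over all 9 genes the median was −0.22. Rescaling to the pan-neuronal list put the median of all genes at 0.11. The log2 difference was then −0.51 for Dlx1 and −0.52 for Dlx5, while that of Lhx6 turned from −0.05 to 0.05. In that scaling 72.3% of the genes past 2-fold were higher, against 62.9% as deposited.

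The genotypes were also compared after KCl. Dlx1 was at 4.48 and 2.38 FPKM, 1.88-fold lower (1.59 to 2.23). Dlx5 stood at 2.01 and 0.93, 2.16-fold lower (1.35 to 3.52). Dlx2 was 1.13-fold lower (0.92 to 1.38), and the Dlx6 values of 0.14 and 0.12 FPKM were too low to compare, with an interval from 9.39-fold lower to 6.43-fold higher. Lhx6 was at 1.74 and 2.19 FPKM, 1.26-fold higher in the cKO (0.99 to 1.61). Sox6 was 1.18-fold lower (1.12 to 1.24) and Prox1 1.31-fold lower (1.17 to 1.45).

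None of the 9 genes was past 2-fold after adding 1, where 1.87% of all genes tested were higher and 0.944% lower. With 0.1 added Dlx5 alone was past it, at −1.03, and the share of all genes was not counted in that setting. Of the 7 measured members 6 lay below 0, with a median of −0.23, against 0.03 over all genes. The share of genes past 2-fold that were higher was 66.5% as deposited and 54.5% with rescaling to the ribosomal protein genes. Other cell types also differed between the genotypes. Over the 12 microglia genes the summed level was 223 and 263 FPKM in the wild-type basal and KCl libraries and 452 and 577 in the cKO ones. Over the 11 vascular and fibroblast genes it was 21.2 and 36.6 against 62.7 and 135, with the endothelial gene Cldn5 listed at 0 in all libraries. Over the 14 oligodendrocyte lineage genes it was 762 and 835 against 475 and 409. The part of these cell types in the Dlx, Sox6 and Prox1 differences was not tested.

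The Dlx genes lie in pairs that face each other on a chromosome and share regulatory elements, and each pair has an antisense RNA. Dlx1as, which overlaps Dlx1, went from 10.6 to 1.33 FPKM with KCl in wild type and from 9.39 to 1.64 in the cKO. It was 7.96-fold lower with KCl in wild type (4.97 to 13.4) and 5.71-fold lower in the cKO (3.72 to 9.12). Both folds were larger than those of Dlx1, but in the cKO the interval overlapped that of Dlx1 (3.15 to 4.30). Between genotypes it differed little at basal KCl, 1.13-fold lower in the cKO (0.89 to 1.43), where Dlx1 was 1.58-fold lower. Dlx6os1, also called Evf2, a noncoding RNA that overlaps Dlx6, stood at 6.65 and 1.84 FPKM in wild type and at 6.62 and 1.37 in the cKO. With KCl it was 3.62-fold lower (3.06 to 4.30) and 4.84-fold lower (4.01 to 5.87), and the basal levels of the genotypes were at a ratio of 1.00 (0.90 to 1.12). No source used here says whether strand was used in counting, so reads of Dlx1 and Dlx1as, and of Dlx6 and Dlx6os1, cannot be told apart where they overlap.

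The genes next to the members, ordered by RefSeq on GRCm38.p6, were read in the same way. On the side of Lhx6 away from Morn5, which stayed under 1 FPKM, Rbm18 stood at 29.5 FPKM in wild type basal, 34.2 in wild type KCl, 29.6 in cKO basal and 37.0 in cKO KCl. Metap1d beside Dlx1 was between 2.04 and 3.79 FPKM, and Shfm1 beside Dlx6 was between 82.4 and 121.4. Acn9 beside Dlx5 stood at 5.26 and 3.78 FPKM in wild type and at 4.45 and 2.35 in the cKO, with log2 differences with KCl of −0.39 and −0.70, where Dlx5 had −0.84 and −0.88. The neighbours of Prox1, Smyd2 and Rps6kc1, had log2 differences with KCl of 0.01 and −0.49 in wild type, where Prox1 had 0.94. The gene 1110004F10Rik beside Sox6 stood between 54.8 and 65.6 FPKM and Mbip beside Nkx2-1 between 5.19 and 7.41. Slc44a5 beside Lhx8 had log2 differences with KCl of −0.79 and −0.68.

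Of the other transcription factors of the ganglionic eminences 21 of 24 reached 1 FPKM. In each genotype 4 of these were at least 2-fold lower with KCl and none was higher, beside the shares of all genes given above (3.31% and 3.09% lower, 5.07% and 4.41% higher). The median log2 difference was 0.00 in wild type and −0.11 in the cKO, against −0.01 and 0.01 over all genes. Lower in both genotypes were Maf, a factor of medial eminence interneurons, Sp9, a zinc finger factor that acts with the Dlx genes, and the LIM-only gene Lmo3. Maf stood at 19.2 and 4.77 FPKM in wild type and at 20.4 and 6.16 in the cKO. Sp9 was 3.47-fold lower with KCl in wild type (2.84 to 4.27) and 5.20-fold in the cKO (3.88 to 7.07), and it was also lower in the cKO, by 1.55-fold at basal KCl (1.33 to 1.81) and 2.32-fold after KCl (1.68 to 3.25). Maf was close to its wild-type level in the basal cKO library, at a ratio of 1.06 and with a log2 difference of 0.08.

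The other factors of this group that reached 1 FPKM lay within 2-fold with KCl in both genotypes. Sall3 had the highest log2 difference in wild type, 0.93, from 5.11 to 10.6 FPKM, and stood at 6.74 and 11.2 in the cKO. The COUP factor gene Nr2f2, known from the caudal eminence as Prox1 is, stood at 6.68 and 8.25 FPKM in wild type and at 10.7 and 12.4 in the cKO. Nr2f1 was at 84.0 and 105.7 in wild type and 77.2 and 71.5 in the cKO, log2 differences of 0.33 and −0.11 with a difference between the responses of −0.44 (−0.51 to −0.36). Satb1, which acts downstream of Lhx6 in somatostatin interneurons, was at 31.8 and 25.8 FPKM in wild type, and its log2 difference was −0.29 there and −0.34 in the cKO. The range within the group with KCl in wild type ran from −1.81 for Maf to 0.93 for Sall3.

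**Figure D4:**
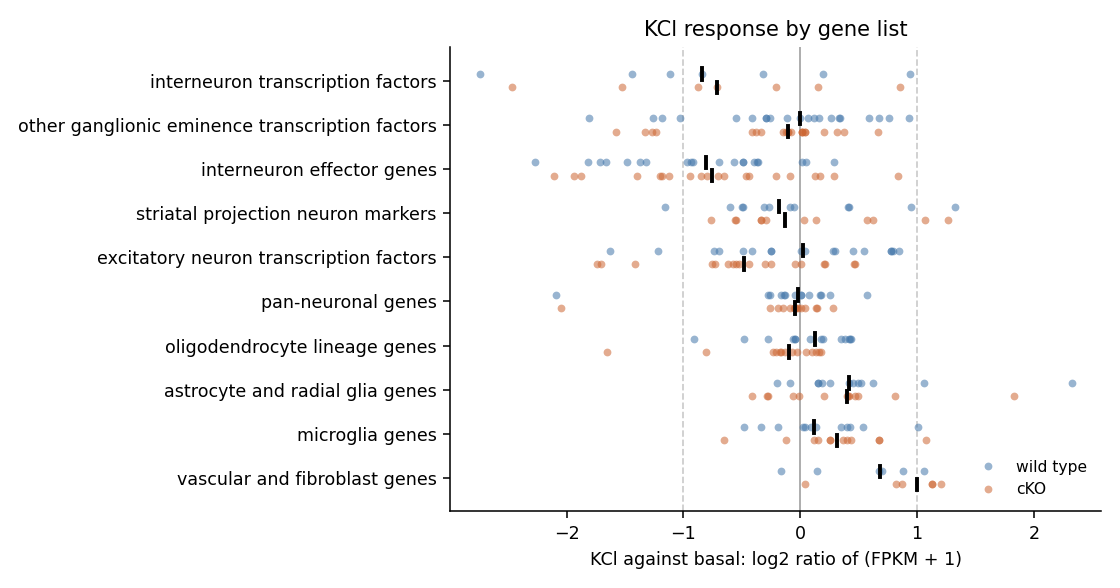
Log2 ratio of (FPKM + 1), KCl against basal, of each gene that reached 1 FPKM in 10 gene lists (blue wild type, orange cKO; black bars are medians; dashed lines mark 2-fold). The interneuron transcription factors and interneuron effector genes have medians of −0.84 and −0.81 in wild type, while the pan-neuronal median is −0.02.

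Most of the listed relatives of the members stayed under 1 FPKM, though the SRY-box genes Sox5 and Sox13 reached it. Of 23 listed relatives and antisense RNAs, 22 had a row and 7 reached 1 FPKM. Dlx4, Nkx2-4, Nkx2-5 and Nkx2-9 were listed at 0 in all libraries, and Dlx3 was at 0.02 FPKM or less. Lhx2, a factor of cortical progenitors and excitatory neurons, stood at 72.6 and 111.7 FPKM in wild type and at 72.3 and 97.7 in the cKO. Sox5, the partner of Sox6 in the SoxD group, was at 12.8 and 10.6 FPKM in wild type and at 11.7 and 7.25 in the cKO, and Sox13, the third SoxD gene, at 1.54 and 0.35 and at 1.18 and 0.25. Nkx2-2, an oligodendrocyte lineage factor, was lower in the cKO at 2.91 and 3.43 FPKM, against 8.62 and 11.9 in wild type.

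The genes that carry out interneuron functions were set beside their transcription factors. Of 24 listed effector genes 20 reached 1 FPKM, and in each genotype 7 were at least 2-fold lower with KCl and none was higher, where 3.31% (wild type) and 3.09% (cKO) of all genes were lower and 5.07% and 4.41% higher. The medians were −0.81 and −0.75, against −0.01 and 0.01 over all genes, and 17 of the 20 lay below 0 in wild type and 16 in the cKO. The vesicular GABA transporter gene Slc32a1 was 6.19-fold lower in wild type (5.26 to 7.33), the GABA-synthesizing enzyme genes Gad2 and Gad1 5.12-fold (4.39 to 6.01) and 3.56-fold (3.17 to 4.01), and the neurexin ligand gene Nxph1 3.37-fold (3.07 to 3.71). Of the 3 above 0 in wild type 2 are named here, chosen after their values were seen. Calb2, the calretinin gene, stood at 18.9 and 19.1 FPKM in wild type, and Reln at 26.9 and 27.8. Both are also expressed by other neurons. The neuropeptide gene Sst, a marker of medial eminence interneurons, stood at 38.1 and 18.9 FPKM in wild type and at 44.0 and 18.5 in the cKO.

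Each factor was then expressed per 100 FPKM of Gad1, Gad2 and Slc32a1 together, a denominator chosen after its values were seen. This sum was 54.0 FPKM in wild type basal, 12.4 in wild type KCl, 42.9 in cKO basal and 8.64 in cKO KCl. The Lhx6 ratio was lower with KCl, at 32.1 and 14.1 in wild type and 38.9 and 25.3 in the cKO, and that of Dlx6 was 2.69 and 1.10 and 1.95 and 1.35. The Dlx6 values with KCl rest on about 3 fragments, and the intervals of its folds include the fold by which the sum itself was lower, so no difference of its ratio is shown. The Dlx1 ratio was higher with KCl, at 25.7 and 36.2 in wild type and 20.4 and 27.6 in the cKO. Dlx5 stood at 8.11 and 16.2 and at 5.93 and 10.8. Dlx2 was higher relative to these genes with KCl, at 9.47 and 31.6 in wild type and 9.69 and 40.1 in the cKO. Between genotypes at basal KCl the Dlx2 ratios were close, those of Dlx1 and Dlx5 were lower in the cKO and that of Lhx6 was higher.

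**Figure D5:**
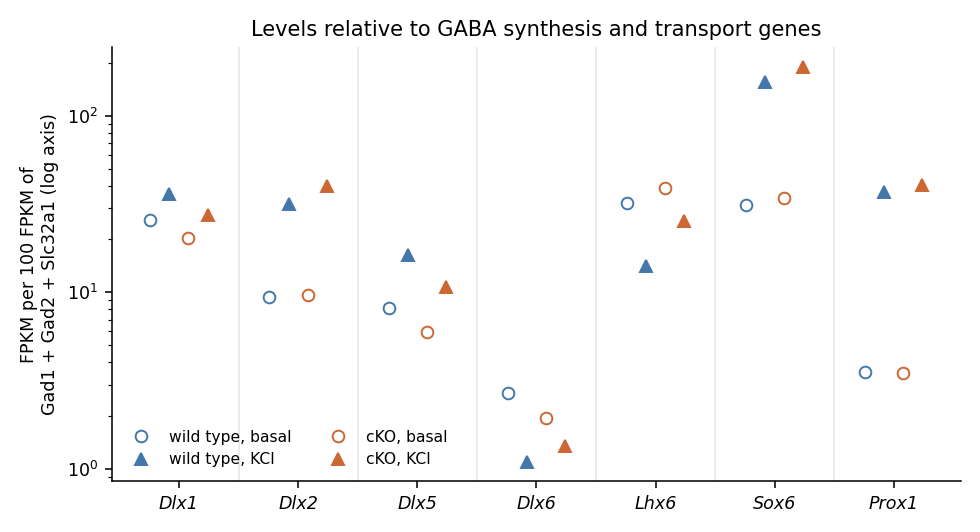
FPKM of each factor per 100 FPKM of Gad1, Gad2 and Slc32a1 together, on a log axis, in each of the 4 libraries (open circles basal, filled triangles KCl, blue wild type, orange cKO). Lhx6 lies lower with KCl in both genotypes and so does Dlx6, whose KCl values rest on about 3 fragments, while Dlx1, Dlx2, Dlx5, Sox6 and Prox1 lie higher.

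Striatal projection neurons also descend from Dlx-positive progenitors. Of 16 striatal projection neuron markers 12 reached 1 FPKM, and their sum was 41.9 FPKM in wild type basal, 35.1 in wild type KCl, 36.6 in cKO basal and 31.7 in cKO KCl. With KCl 1 was higher and 1 lower by 2-fold in wild type, Adora2a at 0.63 and 3.09 FPKM and Tac1 at 1.93 and 0.31. In the cKO 2 were higher and 0 lower. Of all genes tested, 5.07% (wild type) and 4.41% (cKO) were higher with KCl and 3.31% and 3.09% lower. Excitatory neuron factors had a median log2 difference with KCl of 0.02 (wild type) and −0.48 (cKO), with Bcl11b (10.7 and 2.79 FPKM in wild type) and Neurod1 (14.1 and 5.48) among those lower in both. Bcl11b is expressed in interneurons as well. Pan-neuronal genes had medians of −0.02 and −0.04, with 1 of 14 past 2-fold in each genotype, the tubulin gene Tubb3 at 1187 and 278 FPKM in wild type.

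The genes whose levels followed Lhx6 and Dlx1 most closely were found by the Euclidean distance between log2(FPKM + 1) values over the 4 libraries, each centred on its own mean, among 10000 genes at 5 FPKM or more in some library. The nearest to Dlx1 were Spock3, a matrix proteoglycan gene (distance 0.07), Bmp3, a BMP ligand gene (0.09), and Cxxc4, which encodes an inhibitor of Wnt signalling (0.16). Spock3 stood at 18.1 and 5.64 FPKM in wild type. The nearest to Lhx6 were Tbc1d30 (0.36), Cdc42ep2 (0.44) and the antisense RNA Dlx1as (0.47). Tbc1d30 stood at 20.3 and 3.11 FPKM in wild type and at 19.1 and 2.51 in the cKO. Only 4 libraries enter each distance. Among the members themselves Dlx6 was at 0.46 from Dlx5, at place 204 of 13247 genes ordered by nearness to Dlx5. Dlx6 reached 1 FPKM in 1 library only, so its pattern depends on the value added. Its log2 difference with KCl in wild type was −1.11 with 1 added and −2.72 with 0.1 added. The distance was not computed with another value added. Dlx5 was at place 126 from Dlx1. Dlx2 and Sox6, whose levels varied little, lay at 0.44, but Sox6 was only at place 5767 from Dlx2. Dlx1 lay at 0.63 from Dlx5 but at 1.31 from its neighbour Dlx2.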

How the data were processed

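RNA sequencing had been done on 4 libraries, 1 per group. The authors deposited 1 table with a value per gene and library, and its unit was read from the values as FPKM. Per the submitters' processing notes, TopHat 1.3.2 and the mm9 genome were used. No source used here names the program that made the gene values, its annotation or its filters.

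Depth was approximated as the fragment number at which low FPKM values of genes with a single transcript over 2000 bases (GENCODE M21) fell best on whole fragments. With transcripts over 1000 bases it moved by at most 5.71%. Ratios were taken as log2 after adding 1 to both values, over the 13248 genes that reached 1 FPKM in some library, and genes were counted at 2-fold. No p-value was computed: each comparison has 1 library a side, and an additive fit of genotype and KCl over all 4, with 1 residual degree of freedom, was not run. Folds of single genes are ratios of deposited values. The procedure was run with NumPy 2.4.6, pandas 2.3.3, SciPy 1.17.1 and matplotlib 3.10.9 under Python 3.11.15. Its 2-fold count alone was tested, on simulated data with counting error only. The genes set to change there, by more than 2-fold, had a mean of 5 FPKM or more. Dlx5, Dlx6 and Prox1 reached 5 FPKM in no library. The depth approximation, the intervals and the difference between the responses were not tested in this way.

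The members and gene lists were chosen with earlier results of these data known. The rule for named genes took the members, the factors and relatives at 1 FPKM or more, neighbouring genes, the nearest patterns, Smarca4 and up to 4 genes of each other list with the largest KCl difference in wild type, 93 in all. Other genes are outside it: Xist, Sst, Calb2, Reln and the relatives listed as near 0 were chosen after their values were seen. Some genes that the rule took are not reported here.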

Additional observations from a re-analysis of the deposited data

How the results depend on the processing

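Of 175 values of single members under 5 alternatives (pseudocounts of 0.1 and 0.5, and rescaling by the median ratio, to the pan-neuronal list or to the ribosomal protein genes), 146 stayed within the counting interval, 29 did not, and 4 changed sign, none of them past 2-fold. These 4 were Sox6 with KCl in both genotypes, and the Dlx5 difference in KCl response, with the ribosomal scaling, and Lhx6 at basal KCl with the pan-neuronal scaling. The other alternatives, no filter and a filter of 5 FPKM, leave single values as they are and bear on medians and counts alone. The median of the members with KCl in wild type was −0.84 and became −0.32 with no filter. In the cKO it was −0.72 and became −1.36 with a pseudocount of 0.1, −1.09 with 0.5 and −0.22 with no filter. For cKO against wild type after KCl it was −0.23 and became −0.14 with no filter and −0.32 with the ribosomal scaling. Members at least 2-fold higher with KCl numbered 0 in each genotype and 1 (Prox1) with a pseudocount of 0.1 or 0.5 or with a fold of 1.5. Members lower with KCl in wild type numbered 3, and 4 with a pseudocount of 0.1, the ribosomal scaling or a fold of 1.5. They numbered 2 with a filter of 5 FPKM, or with the whole counting interval past 2-fold after adding 1. In the cKO they numbered 2, 3 with the ribosomal scaling, and 4 with a pseudocount of 0.1 or 0.5 or a fold of 1.5. Members lower in the cKO numbered 0 and became 2 with a fold of 1.5 in each condition, and 1 with a pseudocount of 0.1 after KCl. Shares of all genes were counted only at 2-fold with 1 added, as deposited and under the rescalings. The member counts with other pseudocounts, filters or folds, or by whole counting intervals, therefore have no share of all genes beside them. With 1 library per group, no library was left out, and no paired analysis was possible because no groups share 2 or more replicate numbers. Dlx6 after KCl, Nkx2-1 and Lhx8 rest on few fragments at the approximated depth.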
